A study of Mus musculus with 10 samples.

Results

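IGHV5-2, the mouse immunoglobulin heavy chain V gene long known as VH81X, was followed through the rearranged Igh repertoires of peritoneal B-1a cells from wild-type (WT) and Igll1-/- mice. A clonotype is 1 row of the deposited tables, which names V, D and J genes and 1 CDR3 amino acid sequence. A CDR3 can fill more than 1 row of a V gene. The 218 productive IGHV5-2 rows of Igll1-/- replicate 2 held 193 distinct CDR3s. The clonotypes described here are those assigned to IGHV5-2 and to no other V gene, and they number 630 of the 195529 clonotypes in the 4 libraries. IGHV5-2 was 1 of 141 V genes with a clonotype of its own.

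VH81X is the functional V gene closest to the D genes and is known for its frequent rearrangement in fetal and neonatal B cell progenitors. Many heavy chains that carry it pair poorly with the surrogate light chain (SLC), the λ5 and VpreB complex that tests a new heavy chain in the pre-B cell receptor (pre-BCR). Such chains are known to be lost at that checkpoint in adult bone marrow. Igll1 encodes λ5, so Igll1-/- cells have no complete SLC. B-1a cells are innate-like B cells of the body cavities, and many of them arise early in life.

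The study asked how the lack of SLC changes which gene segments B-1a cells use. B-1a cells were sorted from the peritoneal cavity of C57BL/6 mice aged 6 to 8 weeks, 2 libraries from WT animals and 2 from animals with the Igll1 knockout and no other stated allele or treatment. Rearranged heavy chain genes were amplified from genomic DNA between framework 3 and J primers, and products of 120 to 280 bp were kept. The labels number the 2 libraries of each genotype but name no mice or pools, so p-values measure the spread between these libraries, which may be technical.

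The libraries held 32386 to 58205 clonotypes and 180593 to 285517 reads. There were no molecular identifiers, so 1 read is not 1 cell, and intervals on shares cover counting error only. The deleted gene lies outside the amplified locus, so the genotype could not be checked here. B-1a cells are known for IGHV11-2 and IGHV12-3 heavy chains. IGHV11-2 took 2.99% and 4.79% of clonotypes in the WT libraries and 0.821% and 0.960% in the Igll1-/- libraries. IGHV12-3 took 4.32% to 5.09% in all 4 libraries. Replicates of a genotype differed well beyond counting error across V genes (chi-square 3463 on 100 degrees of freedom in WT and 3431 on 95 in Igll1-/-), so neither pair was 1 library deposited again.

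The CDR3 sequences below are those of the largest productive IGHV5-2 clonotype of each library and the largest unproductive one of 3 libraries. They are shown because the share of IGHV5-2 differed between these classes, as it did for some other V genes. An asterisk marks a stop codon.
WT replicate 1, productive: ARQTGFAY
WT replicate 2, productive: ARHYYGSSYYFDY
Igll1-/- replicate 1, productive: ARHYYGSSYYFDY
Igll1-/- replicate 2, productive: ARHWDAMDY
WT replicate 2, unproductive: ASLL**LDY
Igll1-/- replicate 1, unproductive: ARL*LYAMDY
Igll1-/- replicate 2, unproductive: ARQL**GDY
The productive ones had 14, 3, 17 and 12 reads in the order shown, and the unproductive ones 12, 7 and 20. The unproductive one was the larger in WT replicate 2 and Igll1-/- replicate 2, and the productive one in Igll1-/- replicate 1. The CDR3 ARHYYGSSYYFDY had far more reads under other V genes, 1052 in WT replicate 2 and 6362 in Igll1-/- replicate 1.

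IGHV5-2 was a minor V gene in B-1a cells of both genotypes. It made up 215 of 55129 clonotypes in WT replicate 1 (0.390%, Wilson 95% interval 0.341 to 0.446) and 101 of 49809 in WT replicate 2 (0.203%, 0.167 to 0.246). In Igll1-/- replicate 1 it made up 68 of 32386 clonotypes (0.210%, 0.166 to 0.266), and in Igll1-/- replicate 2 it made up 246 of 58205 (0.423%, 0.373 to 0.479). One library of each genotype was high and the other low, and the intervals of replicates did not meet within either genotype. Ranked by clonotypes, the gene stood between place 44 of 131 and place 56 of 121 V genes.

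The mean share was 0.296% ± 0.132 (SD, n = 2) in WT and 0.316% ± 0.150 (SD, n = 2) in Igll1-/- libraries. The fitted Igll1-/- to WT ratio was 1.07, with a 95% interval of 0.360 to 3.18. On the log2 scale the difference was 0.10 (SE 0.61, adjusted p = 0.938 in the edgeR quasi-likelihood test, Benjamini-Hochberg adjusted over 91 V genes). The interval spans decreases and increases of about 3-fold, so the data do not show that the shares were alike. In the same test 0 of 91 V genes were called (0% called), with 8 at an unadjusted p under 0.05 and 1 called by DESeq2. Of the other 14 IGHV5 and IGHV2 genes tested, the families that lie nearest to the D genes, 0 were called in either direction. Their median log2 difference was 0.37, against -0.03 over all V genes. The direction for IGHV5-2 turned with the library left out. It was -0.30 without WT replicate 2 and -0.50 without Igll1-/- replicate 2, and 0.64 without WT replicate 1 and 0.51 without Igll1-/- replicate 1.

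**Figure D1:**
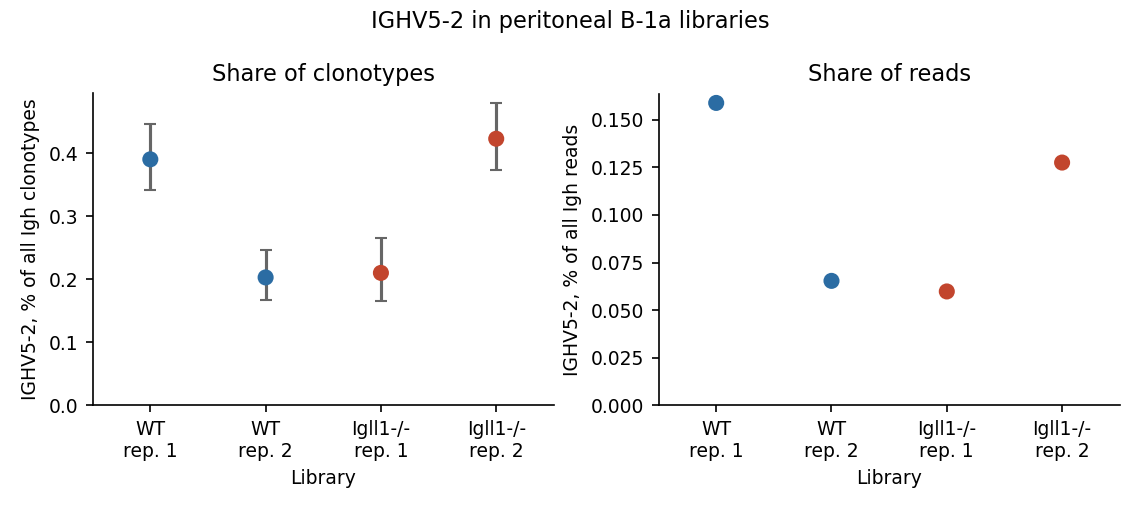
Each point is 1 library. The left panel gives IGHV5-2 as a percentage of all Igh clonotypes with Wilson 95% intervals, and the right panel as a percentage of all Igh reads, with WT in blue and Igll1-/- in red. In both panels WT replicate 1 and Igll1-/- replicate 2 stand above the other pair, so each genotype has a high and a low library.

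IGHV5-2 clonotypes were small. The gene held 343, 139, 108 and 364 reads in WT replicates 1 and 2 and Igll1-/- replicates 1 and 2, which were 0.159%, 0.0654%, 0.0598% and 0.127% of each library. These read shares were below the clonotype shares in 4 of 4 libraries. There were 1.38 to 1.60 reads per IGHV5-2 clonotype, against 3.92 to 5.58 over each whole library. The median over 58 V genes with at least 50 clonotypes in each library was lower than that, at 2.17 to 3.24. Clonotypes of IGHV1-49 were smaller than those of IGHV5-2 in WT replicate 1 (1.37) and Igll1-/- replicate 1 (1.24). They were larger in WT replicate 2 (2.64) and Igll1-/- replicate 2 (1.52). A single read supported 84.1% to 86.1% of IGHV5-2 clonotypes, against 68.0% to 73.4% of all clonotypes. Only 3, 1, 1 and 3 IGHV5-2 clonotypes reached 10 reads.

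The gene differed from most V genes in the functionality of its rearrangements. Productive clonotypes numbered 174 of 215 in WT replicate 1 (80.9%, Wilson 95% interval 75.2 to 85.6) and 80 of 101 in WT replicate 2 (79.2%, 70.3 to 86.0). They numbered 54 of 68 in Igll1-/- replicate 1 (79.4%, 68.4 to 87.3) and 218 of 246 in Igll1-/- replicate 2 (88.6%, 84.0 to 92.0). All other V genes together were 92.1% to 93.6% productive, and the other IGHV5 genes together 92.9% to 94.98%, so IGHV5-2 was lower in 4 of 4 libraries. Taken singly, IGHV5-1 was lower than IGHV5-2 in WT replicate 1 (80.6%) and Igll1-/- replicate 1 (77.6%). It was higher in WT replicate 2 (93.7%) and Igll1-/- replicate 2 (93.6%). Among 58 V genes with at least 50 clonotypes in each library, its productive share was the 5th, 3rd, 3rd and 8th lowest in the same order of libraries.

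Nearly all rows of these tables have a CDR3 with both conserved ends, for example 55096 of 55129 in WT replicate 1. The unproductive class is mostly joins with a stop codon in the CDR3. How many out-of-frame joins the tables hold was not tested. The CDR3 held a stop codon in 39 of 41, 21 of 21, 14 of 14 and 27 of 28 unproductive IGHV5-2 clonotypes, and in none of the productive ones. For all other V genes that share of unproductive clonotypes was 74.5% to 88.3%.

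The share of IGHV5-2 among unproductive clonotypes was 2.88 times its share among productive ones (95% interval 1.99 to 4.17). On the log2 scale the difference was 1.53 (SE 0.23, adjusted p = 0.0037 in the edgeR quasi-likelihood test, Benjamini-Hochberg adjusted over 93 V genes, with the library as a block). In this test 12 of 93 V genes were called in the same direction (12.9% called) and 6 in the other (6.45%), 19.4% in all. IGHV5-2 was 8th in size of the ratio and 2nd by p. The call held with each library left out in turn, with log2 values of 1.41 to 1.73 and adjusted p of 0.0044 to 0.042 in the same edgeR test. It also held after merging clonotypes that differ by 1 amino acid from a far larger one, at 1.56.

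Of the other 14 IGHV5 and IGHV2 genes in this test, 1 rose and 1 fell, with a median of 0.19. IGHV2-3 was higher among unproductive clonotypes (log2 0.89) and IGHV5-17 was lower (log2 -0.76). IGHV5-17 was the IGHV5 or IGHV2 gene with the most clonotypes, 3.88% to 7.03% of a library. Among the 9 genes of these families with at least 50 clonotypes in each library, the mean productive share ran from 82.0% for IGHV5-2 to 96.5% for IGHV5-12-2. The V genes most like IGHV5-2 in productive share were IGHV1-67, IGHV1-49 and IGHV5-1. Their mean absolute differences from it over 4 libraries were 4.07, 4.49 and 5.39 percentage points. In the test of unproductive against productive clonotypes IGHV1-67 (log2 1.23) and IGHV1-49 (log2 1.73) were called in the same direction as IGHV5-2. IGHV5-1 (log2 0.79) was not called. The B-1a genes IGHV11-2 (log2 0.86) and IGHV12-3 (log2 1.17) were called in that direction too, so the excess was not particular to IGHV5-2.

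**Figure D2:**
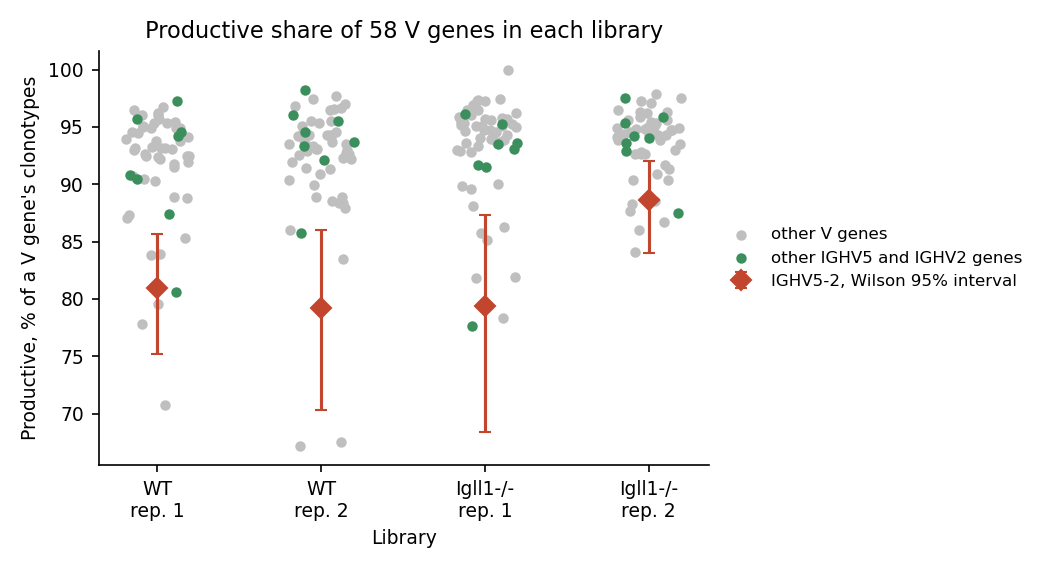
Each point is a V gene with at least 50 clonotypes in each library, placed by the percentage of its clonotypes that were productive. IGHV5-2 is the red diamond with its Wilson 95% interval, the other IGHV5 and IGHV2 genes are green, and points are spread sideways for visibility. IGHV5-2 lies at 79.2% to 88.6%, below most V genes in each library.

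**Figure D3:**
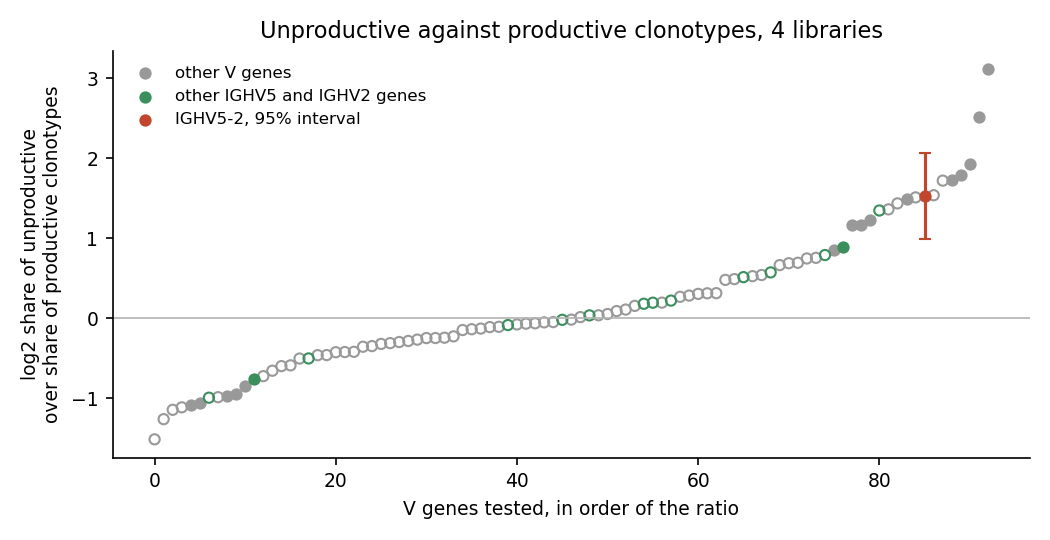
The 93 V genes tested are ordered along the horizontal axis by the log2 ratio of their share of unproductive clonotypes to their share of productive clonotypes, fitted over 4 libraries. Filled points passed the test after adjustment and open points did not. IGHV5-2, in red with its 95% interval, lies at 1.53.

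The productive share did not differ detectably between genotypes. It was 80.1% ± 1.22 (SD, n = 2) in WT and 84.0% ± 6.51 (SD, n = 2) in Igll1-/- libraries, a difference of 3.95 points (exact permutation test, two-sided p = 0.667, where the smallest p for 2 against 2 libraries is 0.333). By reads it was 67.1% and 64.0% in WT and 75% and 84.6% in Igll1-/- libraries, a difference of 14.3 points with that smallest exact p. The change of the unproductive to productive ratio with genotype was -0.22 on the log2 scale (SE 0.47, 95% interval -1.26 to 0.82, adjusted p = 0.91 in the edgeR quasi-likelihood test after Benjamini-Hochberg adjustment). It was -1.50 by reads (adjusted p = 0.432 in the same edgeR test) and positive, at 0.39, without Igll1-/- replicate 2, the library with the highest productive share. In that test 1 of 93 V genes was called (1.08% called), IGHV12-3, which lies outside the families described here.

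Within IGHV5-2 the mean number of reads was higher per unproductive than per productive clonotype, a difference to which single large unproductive clonotypes contributed. Reads per unproductive and per productive clonotype were 2.76 and 1.32 in WT replicate 1 and 2.38 and 1.11 in WT replicate 2. They were 1.93 and 1.5 in Igll1-/- replicate 1 and 2 and 1.41 in Igll1-/- replicate 2. Without the largest unproductive clonotype of each library the unproductive means were 1.55, 1.9, 1.54 and 1.33, which in Igll1-/- replicate 2 is below the productive mean. The largest productive clonotypes were kept, so this omission could only narrow the difference. Over all other V genes unproductive clonotypes carried fewer reads than productive ones in each library but Igll1-/- replicate 2. Unproductive clonotypes took 32.9%, 36.0%, 25% and 15.4% of IGHV5-2 reads, against 4.52% to 8.41% of the reads of all other V genes. Measured in reads, the log2 ratio of unproductive to productive shares was 2.57 (adjusted p = 0.0149 in the edgeR quasi-likelihood test after Benjamini-Hochberg adjustment).

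In the RefSeq gene order of assembly GRCm38.p6, IGHV5-2 is the third V gene from the D genes. The V segments nearer to D are the pseudogenes Ighv5-1 and Ighv2-1. No clonotype was assigned to Ighv2-1. IGHV5-1 had 165 and 302 clonotypes in the WT libraries and 67 and 529 in the Igll1-/- libraries, and 77.6% to 93.7% of them were called productive. IGHV2-2, the next V gene on the far side, had 51 to 99 clonotypes per library, 92.2% to 94.2% of them productive.

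Productive IGHV5-2 rearrangements had CDR3s close in mean length to those of other V genes. The mean was 10.3 amino acids in WT replicate 1 and 10.9 in WT replicate 2. It was 10.7 in Igll1-/- replicate 1 and 10.6 in Igll1-/- replicate 2. The genotype means were 10.6 ± 0.409 and 10.6 ± 0.0531 (SD, n = 2 each), a difference of 0.0367 amino acids (exact permutation test, two-sided p = 1). All other V genes averaged 10.8, 10.6, 10.6 and 10.4 in the same libraries. IGHV5-2 differed from them by a mean of 0.0197 amino acids and stood below them only in WT replicate 1 (exact paired permutation test over 4 libraries, two-sided p = 1, where the smallest possible p is 0.125). Over productive clonotypes among the 10 to 39 per library with at least 2 reads, the difference was 1.08 amino acids (exact two-sided p = 0.25). The spread of lengths was smaller for IGHV5-2, with an SD of 2.14 to 2.46 across clonotypes against 2.91 to 3.12 for the pooled other V genes, and its lengths ran from 6 to 18. Pooling V genes of different mean lengths widens the SD, and other V genes were not compared singly.

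**Figure D4:**
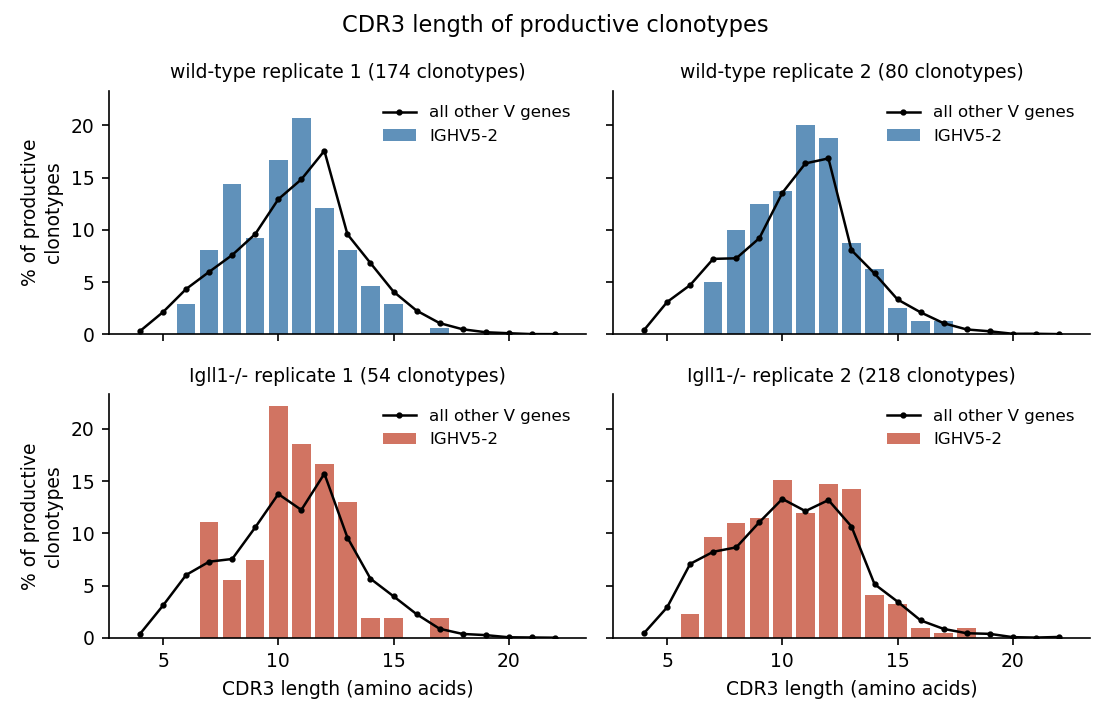
Bars give the percentage of productive IGHV5-2 clonotypes at each CDR3 length in amino acids, 1 panel per library, and the black line gives the same for all other V genes. The bars and line cover the same central range in each library, with means between 10.3 and 10.9.

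Many IGHV5-2 CDR3s shared their first residues. The CDR3 began with ARH in 71 productive clonotypes of WT replicate 1 (40.8%) and 25 of WT replicate 2 (31.3%). It did so in 21 of Igll1-/- replicate 1 (38.9%) and 72 of Igll1-/- replicate 2 (33.0%). The other IGHV5 genes, pooled, had this start in 9.82% to 13.5% of productive clonotypes and all other V genes in 2.57% to 4.16%. Single IGHV5 genes were not compared for it. The first CDR3 residues are largely encoded by the V gene itself. The run YYGSS, encoded by IGHD1-1, occurred in 9.20% to 18.5% of productive IGHV5-2 CDR3s and in 7.22% to 8.02% of those of all other V genes.

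All 4 J genes were joined to IGHV5-2. IGHJ2 was the most frequent in each library. It took 39.1% in WT replicate 1, 35.6% in WT replicate 2, 50% in Igll1-/- replicate 1 and 32.1% in Igll1-/- replicate 2. IGHJ1 took 10.3% to 22.8%, IGHJ3 20.6% to 33.0% and IGHJ4 16.7% to 27.6%. Against all other V genes the mean differences over 4 libraries were 0.143 points for IGHJ1, -4.64 for IGHJ2, 2.34 for IGHJ3 and 2.17 for IGHJ4. None passed an exact paired permutation test (lowest two-sided p = 0.375, adjusted p = 0.667 over the 4 J genes), a design that cannot go below 0.125.

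By genotype, 0 of the 4 IGHV5-2 and J pairs differed in edgeR's quasi-likelihood test, with log2 values of -0.16 to 0.62, adjusted p of 0.781 to 0.961 and 0 at an unadjusted p under 0.05. Over all V and J pairs 1 of 272 was called (0.368% called). Of the IGHV5-2 and D pairs, 6 had enough clonotypes to test and 0 were called, with log2 values of -0.38 to 0.55 and 0 at an unadjusted p under 0.05. Over all V and D pairs 12 of 658 were called (1.82% called).

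IGHD1-1 was the leading D gene, with 184 of the 630 clonotypes. It took 27.4% and 23.8% in the WT libraries and 29.4% and 32.9% in the Igll1-/- libraries, close to the 28.8% to 31.1% of all other V genes. IGHD2-5 came next with 75 clonotypes. It took 12.6% and 16.8% in the WT libraries and 8.82% and 10.2% in the Igll1-/- libraries. These were above the 6.33% to 7.34% of all other V genes in 4 of 4 libraries, a comparison that was not tested. IGHD2-4 had 65 clonotypes, 12.6%, 7.92%, 13.2% and 8.54% in the order of libraries used above, against 5.96% to 8.86%.

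The unproductive share of IGHV5-2 clonotypes varied between these D genes. Over the 4 libraries 24 of 184 IGHV5-2 clonotypes with IGHD1-1 were unproductive (13.0%), 20 of 75 with IGHD2-5 (26.7%) and 29 of 65 with IGHD2-4 (44.6%). With all other V genes, the unproductive share per library was 6.86% to 9.47% for IGHD1-1, 6.88% to 18.8% for IGHD2-5 and 7.41% to 11.2% for IGHD2-4. Per library of IGHV5-2 it was 11.1% to 20.8% for IGHD1-1 and 23.8% to 77.8% for IGHD2-4, above those ranges in each library. For IGHD2-5 it was 12% to 41.2%, which overlaps the range. Some of these shares rest on very few clonotypes, as few as 8 for IGHD2-4 and 6 for IGHD2-5 in a library, and they were not tested.

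**Figure D5:**
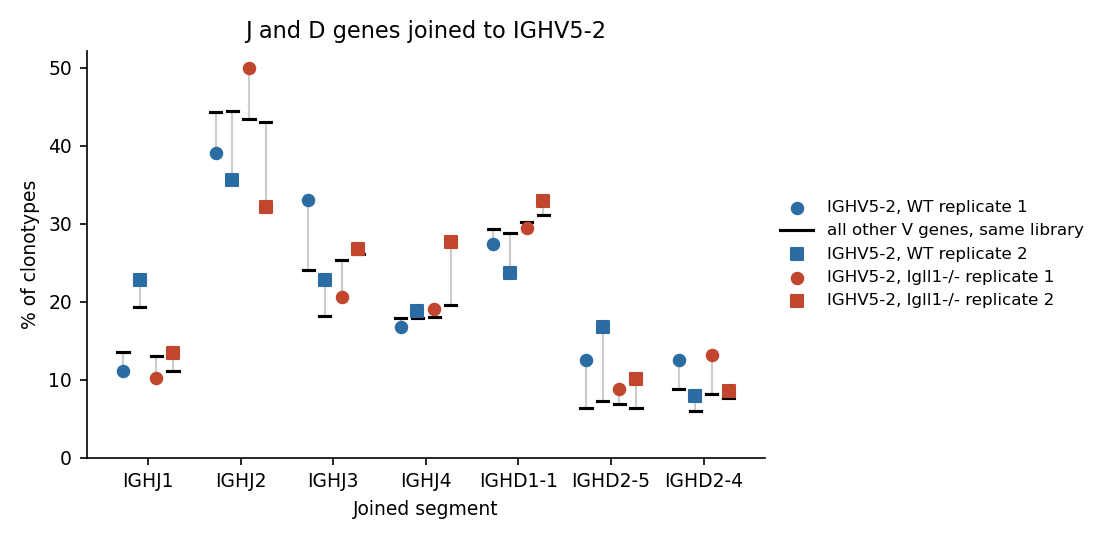
Coloured points give the percentage of IGHV5-2 clonotypes joined to each J gene and to the 3 commonest D genes in each library, and black bars give the same for all other V genes of that library. IGHD2-5 and IGHD2-4 points lie above their bars in 4 of 4 libraries, while IGHJ points lie on both sides.

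Most productive IGHV5-2 CDR3s were found in 1 library. Of 435 distinct sequences 388 were found in 1 library, 41 in 2, 5 in 3 and 1 in 4. Recurrence was not computed for other V genes, so whether these counts are low for a gene of this size was not tested. WT replicates 1 and 2 shared 14, which is 8.24% of the first and 17.9% of the second. The Igll1-/- replicates shared 6, 12.5% of replicate 1 and 3.11% of replicate 2. Libraries of different genotype shared 4 to 22. The one found in 4 libraries and 4 of the 5 found in 3 are shown, those with the largest mean share of IGHV5-2 reads, because they recurred most under this gene.
In 4 libraries: ARHYYGSSYYFDY
In 3 libraries: ARDYYGSSYYFDY
In 3 libraries: ARHYYGSSYWYFDV
In 3 libraries: ARHGNYFDY
In 3 libraries: ARHGYYAMDY
The first of these had 4, 4, 21 and 10 reads under IGHV5-2, over all its clonotypes. The same CDR3 had 3353, 1052, 6362 and 1974 reads under 35 to 42 other V genes of the same libraries. The other 4 also had more reads under other V genes in each library where they were found. Examples are 5 against 1012 for ARDYYGSSYYFDY in Igll1-/- replicate 2 and 2 against 30 for ARHGYYAMDY in WT replicate 1.

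Many IGHV5-2 clonotypes had a far larger counterpart under another V gene. A CDR3 with the same J gene and at least 10 times the reads under another V gene of the same library was found for 38 clonotypes of WT replicate 1 (17.7%) and 37 of WT replicate 2 (36.6%). It was found for 34 of Igll1-/- replicate 1 (50%) and 126 of Igll1-/- replicate 2 (51.2%). The share was higher in both Igll1-/- libraries than in both WT libraries, and it was 10.7%, 30%, 21.8% and 30% for all other V genes. This genotype contrast was not tested. Reads per clonotype over the whole library were also higher in Igll1-/- (5.58 and 4.91) than in WT libraries (3.92 and 4.27). The threshold is easiest to meet for clonotypes with 1 read, which were more common in IGHV5-2. Among related genes the share was 14.5% to 56.6% for IGHV5-1, 55.6% to 95.3% for IGHV5-12-2 and 4.48% to 11.8% for IGHV2-3. IGHV5-17 was the most frequent counterpart in each library except WT replicate 1, where IGHV1-19 was. Counterparts were more frequent among productive clonotypes (20.7% to 56.4%) than among unproductive ones (4.88% to 28.6%) in each library.

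Without these clonotypes IGHV5-2 kept 177, 64, 34 and 120 clonotypes, or 0.373%, 0.195%, 0.144% and 0.312% of the rest, and 78.0%, 71.9%, 70.6% and 79.2% of them were productive. The excess among unproductive clonotypes was then larger, at 1.98 on the log2 scale (adjusted p = 0.001 in the edgeR quasi-likelihood test after Benjamini-Hochberg adjustment). This filter took out a larger share of productive than of unproductive IGHV5-2 clonotypes in each library. That raises the ratio of unproductive to productive clonotypes within the gene. The fitted value also depends on how the filter acted on each class of the other V genes, which was not computed. The larger value is therefore no separate evidence of the excess. The genotype difference in share then had the opposite sign, at -0.31 (adjusted p = 0.809 in the same edgeR test).

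The sequenced stretch matched germline IGHV5-2 at a median identity of 95.56% in all 4 libraries, and 63.4% to 76.5% of clonotypes had exactly that value. Identity reached 97% in only 4.19% to 7.35% of IGHV5-2 clonotypes. Of the largest clonotypes shown above, the productive ones had 95.56%, 95.56%, 98.59% and 97.78% identity in the order shown. The unproductive ones had 97.78%, 95.56% and 97.78%. The other IGHV5 genes had a median of 96.67% and all other V genes 99.02%. IGHV5 genes are close relatives, and 616 of the 630 clonotypes listed alleles of IGHV5-2 alone. Clonotypes naming a further V gene had been left out beforehand, so this count is largely set by the selection and says little about assignment. How often a short read was placed on the wrong member of the family was not tested.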

How the data were processed

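The 4 Igh clonotype tables were used. The 6 Igk tables were not used. Per the study's methods the authors amplified Igh rearrangements with framework 3 and J primers, sequenced them as paired reads and assigned genes with IMGT/HighV-QUEST (version not given in the sources used here). In the deposited tables each row is a clonotype with its read count, which was not normalized, and its percent identity to the germline V gene, both as the authors' tool gave them.

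Rows naming IGHV5-2 alone were counted per library. Clonotype counts per V gene, V and J pair or V and D pair (at least 10 clonotypes in at least 2 columns) were fitted over all features with edgeR's quasi-likelihood test (version 4.0.16, R 4.3.3) with the library total as size and Benjamini-Hochberg adjustment at 0.05. DESeq2 (version 1.42.0) was an alternative. Productive and unproductive clonotypes were compared in 1 model with the library as a block. Percentages and lengths were compared by exact permutation tests (SciPy 1.17.1). The fits were tested on simulated counts. Shares carry Wilson 95% intervals. The libraries held 180593 to 285517 reads.

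The text names IGHV5-2, the ends of the IGHV5 and IGHV2 list, the 3 V genes closest in productive share, the largest clonotypes, the CDR3s in most libraries, all J genes and 3 D genes. The largest unproductive clonotype of WT replicate 1 is not reported here. Genes named outside this rule (the 2 called IGHV5 and IGHV2 genes, IGHV12-3, the counterpart V genes and the neighbours) were chosen after their values were seen, as were the D gene split of unproductive joins and the CDR3 starts. The gene, lists and tests were chosen with earlier results of these data known. Alternatives used reads, minimum reads per clonotype, merged clonotypes, other handling of ambiguous V genes, other normalizations and the omission of each library. Leaving out clonotypes with a CDR3 counterpart under another V gene, and leaving out the largest unproductive clonotype, were chosen after seeing the data. Of the 141 V gene names, 108 matched a RefSeq symbol.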

Additional observations from a re-analysis of the deposited data

Results flagged for a closer look

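Clonotypes that listed IGHV5-2 together with another V gene were not counted as IGHV5-2. There were 25 of them in Igll1-/- replicate 2, against 4 and 3 in the WT libraries and 1 in Igll1-/- replicate 1. Of the 25, 24 listed IGHV5-9 as the other gene. Their number drew attention because it exceeded that in both WT libraries.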

How the results depend on the processing

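The excess of IGHV5-2 among unproductive clonotypes kept its direction and its call in every alternative computed, with log2 values of 1.41 to 1.73 when each library was left out and up to 2.81 over clonotypes with at least 2 reads, and edgeR adjusted p of 0.0004 to 0.0418. No genotype difference in share passed the test under any alternative, but its log2 value changed sign by reads (-0.26), over unproductive clonotypes alone (-0.049) and without clonotypes that have a counterpart under another V gene (-0.31), and ran from -0.50 to 0.64 with libraries left out. The change of the unproductive to productive ratio with genotype was -1.50 by reads, -0.99 at 2 reads or more, 0.075 without those clonotypes and -0.63 to 0.39 with libraries left out. The genotype difference in productive percent was 14.3 points by reads, 14.6 at 2 reads or more, -0.0431 without those clonotypes and -0.657 to 8.55 with libraries left out. The genotype difference in CDR3 length was -0.000343 amino acids after merging and -0.252 to 0.326 with libraries left out. The CDR3 length difference from other V genes was 1.08 at 2 reads or more, -0.322 without those clonotypes and -0.0652 to 0.202 with libraries left out. The IGHJ1 difference was -17.1 points by reads, -1.01 without those clonotypes and -0.969 to 1.13 with libraries left out. The IGHJ2 difference was 4.57 points by reads and -8.37 to -2.52 with libraries left out, where IGHJ3 gave 0.152 to 4.72 and IGHJ4 0.219 to 3.30. Reads per unproductive minus per productive clonotype in Igll1-/- replicate 2 was -0.0795 without its largest unproductive clonotype, with all productive ones kept. The cause was not tested in any of these cases. No V and J or V and D pair of IGHV5-2 was called under any alternative computed (0 in each). At 10 reads or more, 1 to 3 clonotypes per library were left and no value could be had, and no IGHV5-2 and J pair could be tested at 2 reads or more.

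With the replicate number as a block the genotype difference in share was 0.09 (adjusted p = 0.993, edgeR quasi-likelihood test, Benjamini-Hochberg adjusted). Deviations of same-numbered libraries correlated at r = 0.31 over 91 V genes, and nothing else pairs them.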
